A study of Mus musculus with 2 samples.

Results

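The cells described here were follicle progenitors that carried mRNA of both *Sox9* and *Lhx2* in the back skin of mouse embryos at E17. They were chosen by their own measured counts. A barcode was a member when it held at least 1800 detected genes, at least 2 unique molecular identifiers (UMIs, each marking 1 captured mRNA molecule) of *Sox9* and at least 2 of *Lhx2*. A member also had fewer than 2 UMIs of *Dkk4* and *Fgf20* together, and fewer than 30 UMIs of *Krt1* and *Krt10* together per 10000 UMIs. The rule found 380 members among the 8024 kept cells, 204 of 4447 in the Ctrl library and 176 of 3577 in the cKO library. A kept cell was any barcode with at least 1800 genes.

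The study asked what loss of the mRNA modification m6A does to embryonic skin, by removing METTL3, the catalytic subunit of the m6A writer, from the epithelium. Ctrl embryos were Mettl3 fl/+, Rosa16-YFP fl/+ with K14Cre, and cKO embryos were Mettl3 fl/fl, Rosa16-YFP fl/+ with K14Cre, both on a C57BL/6 background (the study's methods write Rosa26 for the reporter). K14Cre acts in the skin epithelium, so both groups carried Cre, YFP and at least 1 floxed *Mettl3* allele. YFP+ epithelial cells were sorted with a gate on integrins and against other lineages, and 1 droplet library was made per condition.

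Hair follicles form when patches of embryonic epidermis receive WNT signals, thicken into placodes and grow down into the dermis as pegs. SOX9, a transcription factor of the SRY family, marks the cells that go on to form the outer root sheath and the stem cells of the bulge. LHX2, a LIM homeodomain factor, is made in placodes and later in stem cells, where it helps to hold back differentiation. Cells at the growing tip instead make the ligand SHH, and cells of the upper follicle make keratin 79.

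With 1 library per condition there was no replicate, so no test between Ctrl and cKO was made, and the intervals given are 95% intervals that cover counting error only. The libraries held 59664869 (Ctrl) and 49755010 (cKO) UMIs in all. Members had a median of 10162.5 and 9648.5 UMIs and of 3077.5 and 2964.5 genes, with 3.85% and 4.13% mitochondrial UMIs. The libraries shared 16 kept barcodes, and 0 of these were members. By their sex-linked genes the libraries were not of the same sex, since UMIs of *Xist* occurred in 204 of 204 Ctrl members but 1 of 176 cKO members, and UMIs of Y-linked genes in 0 and 118 (67.0%). Genotype and sex therefore cannot be told apart in any comparison below. *Mettl3* gave 39 UMIs in Ctrl and 8 in cKO members, a cKO to Ctrl ratio of 0.24 (0.10 to 0.53), against 0.51 in all other kept cells. The reads came from 3′ ends and the loxP sites flank the fourth exon, so this level does not measure the deletion.

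The genes of the rule were present at low counts per cell. *Sox9* (chromosome 11, 112782224 to 112787760, GRCm38) ranged from 2 to 13 UMIs in Ctrl members, with a median of 4, and from 2 to 19 in cKO members, with a median of 3.5. *Lhx2* (chromosome 2, 38339281 to 38369733) ranged from 2 to 30 UMIs in Ctrl and from 2 to 25 in cKO, with a median of 3 in both. The ranges of both libraries overlapped. Both genes were at 2 to 4 UMIs in 81 Ctrl and 86 cKO members. They were at exactly 2 UMIs in 19 and 18, and both reached 3 or more in 110 and 86. Just outside the rule were 86 Ctrl and 107 cKO cells with enough *Sox9* but 1 UMI of *Lhx2*, and 60 and 61 with enough *Lhx2* but 1 UMI of *Sox9*. *Tbx1* stood at 131 and 88.8 CPM (a gene's UMIs scaled to the total UMIs of the summed cells) in members where at least 1 of the rule's genes was at 2 UMIs. In the 19 Ctrl and 18 cKO members with both at 2 UMIs, *Tbx1* stood at 22.4 and 87.3 CPM. It stood at 54.8 and 66.2 CPM in the cells left out for *Lhx2*, and at 99.9 and 102 CPM in those left out for *Sox9*. The class is thus a range cut from counts, with many cells close to the cut on either side. The limit on *Dkk4* and *Fgf20* removed 0 Ctrl and 1 cKO cells, and that on *Krt1* and *Krt10* removed 0 and 3.

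**Figure D1:**
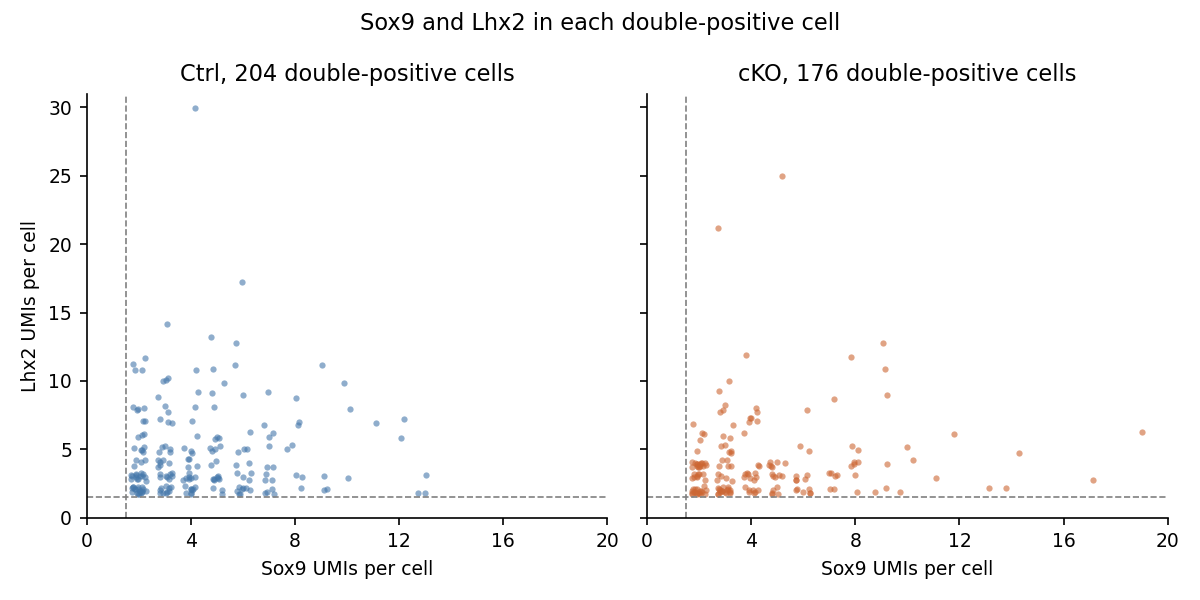
UMIs of *Sox9* (horizontal axis) and *Lhx2* (vertical axis) in each of the 204 Ctrl and 176 cKO members, 1 point per cell. In 81 Ctrl and 86 cKO members both genes are at 2 to 4 UMIs, and the libraries overlap.

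The label was checked against the other markers named for it, *Tbx1* and *Lgr5*, and against *Nfatc1*. TBX1 is a T-box factor of follicle stem cells, LGR5 is a receptor for R-spondins that amplifies WNT signals, and NFATC1 is a factor of bulge stem cells. *Tbx1* (chromosome 16, 18580979 to 18590671) had a UMI in 59.3% of Ctrl and 54.5% of cKO members. After every cell was thinned to 5500 UMIs, which left out 5 and 11 shallower members, the shares were 45.7% (38.7 to 52.9) and 43.0% (35.4 to 51.0). *Nfatc1* had a UMI in 64.7% and 44.9% of members, or 45.2% (38.2 to 52.4) and 30.3% (23.4 to 37.9) when thinned. The thinned intervals for *Tbx1* overlapped, while those for *Nfatc1* nearly touched, at 38.2 in Ctrl and 37.9 in cKO. Thinning was a random draw, and other draws were not made. These intervals count cells of 1 library per condition, so they hold no spread between embryos. *Lgr5* (chromosome 10, 115450311 to 115587780) was seen in fewer cells, 26.5% and 19.3%, or 16.6% and 13.9% when thinned.

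Interfollicular basal cells served as the background for these shares. They were defined by *Krt5* and *Krt14* and by no UMI of *Sox9*, *Lhx2*, *Shh*, *Krt79*, *Dkk4* or *Fgf20*. In the 2171 Ctrl and 1116 cKO cells of this kind, with median depths of 9009 and 9061.5 UMIs, *Tbx1* had a UMI in 0.322% and 0.896% and *Nfatc1* in 0.645% and 0.448%. The shares in members were far above this background. *Tbx1* or *Nfatc1* was seen in 168 Ctrl members (82.4%, 76.4 to 87.3) and 122 cKO members (69.3%, 61.9 to 76.0). None of *Tbx1*, *Nfatc1* and *Lgr5* was seen in 34 (16.7%) and 49 (27.8%), and all 3 in 32 (15.7%) and 16 (9.09%). These basal cells were chosen to lack the follicle genes, and the neighbouring follicle classes also carried the markers. In cells with *Sox9* but no *Lhx2*, *Tbx1* had a UMI in 44 of 275 Ctrl and 61 of 296 cKO cells and *Nfatc1* in 70 and 76, unthinned. *Tbx1* or *Nfatc1* thus marked most members but not only them, and *Lgr5* marked a minority. *Cd34*, a surface marker of the adult bulge, had a UMI in 1 Ctrl and 0 cKO members.

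**Figure D2:**
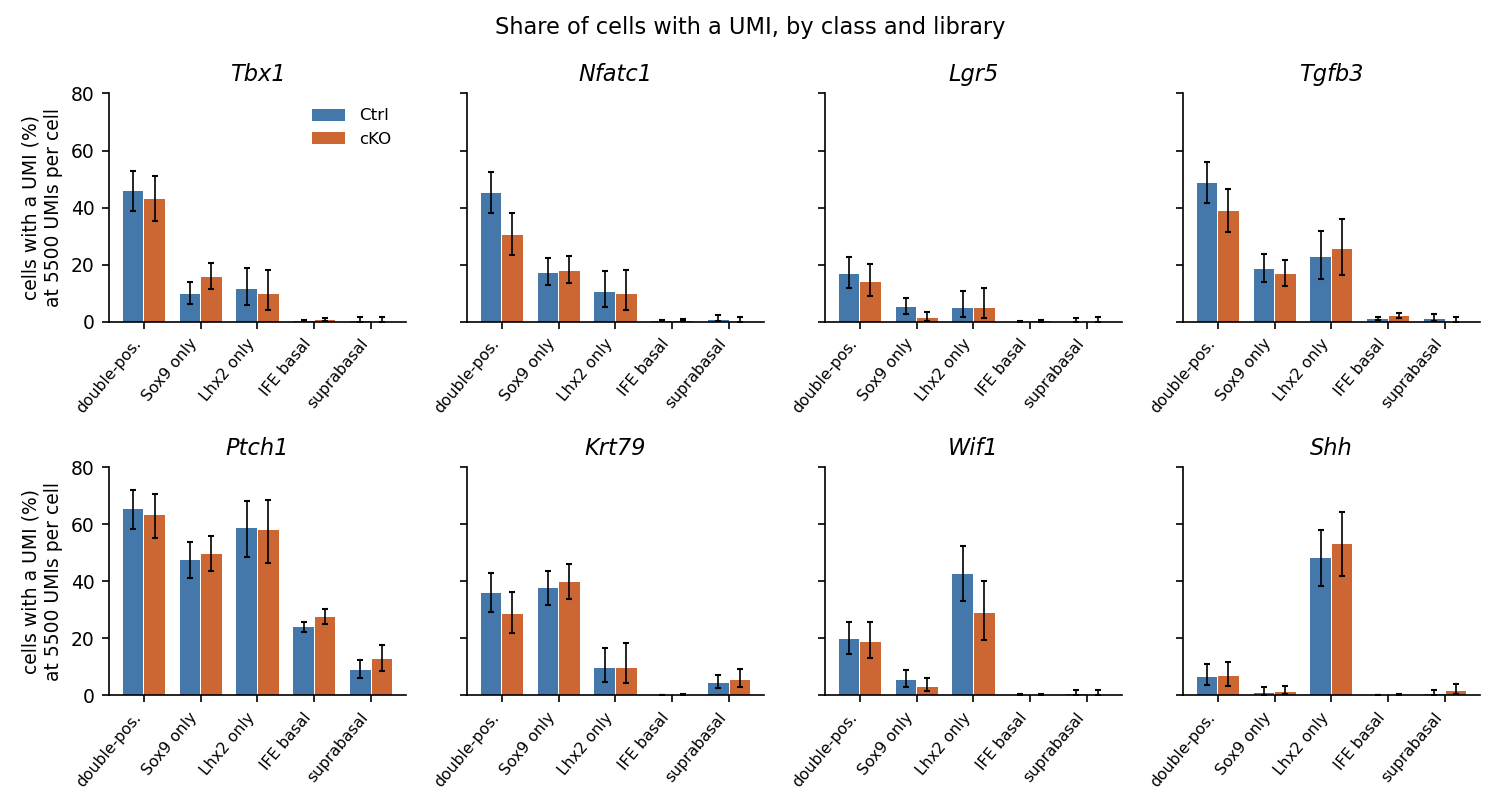
Share of cells with at least 1 UMI of each of 8 genes (percent, vertical axis) after thinning to 5500 UMIs, in members, in cells with only *Sox9* or only *Lhx2*, and in interfollicular (IFE) basal and suprabasal cells of Ctrl and cKO, with exact binomial 95% intervals. In members *Nfatc1* shows a gap between the libraries (45.2% and 30.3%), while *Tbx1* (45.7% and 43.0%) and *Ptch1* (65.3% and 63.0%) lie close together.

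Genes measured at higher levels in members than in all other kept cells were described next, with the caution that the members were picked on their counts. Of 8576 genes compared, 318 (3.71%) were at least 2-fold higher and 220 (2.57%) at least 2-fold lower in both libraries. Among transcription factors with the greatest ratios, *Tbx1* was 22.7-fold higher in Ctrl and 11.8-fold in cKO, *Nfatc1* 12.2-fold and 7.48-fold, and *Trps1*, a GATA-type repressor needed for hair growth, 10.0-fold and 6.78-fold. *Lmcd1*, which encodes a LIM domain regulator of transcription, was 18.8-fold and 7.92-fold higher, and *Id4*, an inhibitor of basic helix-loop-helix factors, 6.98-fold and 6.68-fold.

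Secreted and matrix proteins formed another group. *Tgfb3*, a TGF-beta ligand, was 11.8-fold higher than in other cells in Ctrl and 6.88-fold in cKO. *Ltbp1*, whose product binds latent TGF-beta in the matrix, was 10.2-fold and 6.12-fold higher, and *Mgp*, the matrix Gla protein, 11.9-fold and 5.99-fold. *Wif1*, which encodes a secreted WNT inhibitor, was 6.96-fold and 7.80-fold higher, and *Igfbp7* 6.97-fold and 8.05-fold. The collagen gene *Col14a1*, the serine protease-like gene *Prss35* and the ion transport regulator *Fxyd6* were between 5.56-fold and 9.11-fold higher. At the surface, *Nrp2*, a co-receptor for semaphorins and VEGF, was 7.62-fold and 6.63-fold higher, and *Cntfr*, the ciliary neurotrophic factor receptor, 7.14-fold and 5.83-fold. Inside the cell, the Rac activator *Elmo1*, the CDC42 effector *Cdc42ep3* and *6330403K07Rik* were between 5.82-fold and 10.1-fold higher. These folds are against all other kept cells pooled. In cells with *Lhx2* but no *Sox9*, 4 of the 18 genes named beside the rule's own were at or above their level in members in both libraries. They were *Wif1* (130 and 68.4 CPM, against 67.9 and 48.4 in members), *Igfbp7* (108 and 107, against 64.3 and 101), *Nrp2* (254 and 217, against 179 and 185) and *Mgp* (192 and 206, against 162 and 148). In cells with *Sox9* but no *Lhx2*, all 18 were below their level in members in both libraries.

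Of these 18 genes, 16 had the greater fold in Ctrl. Within the members themselves their cKO to Ctrl ratio was below 1 for 14 and above 1 for 4, with an interval clear of 1 for 7 of the former and 1 of the latter. Of all measured genes, 53.8% were below 1. Genes at least 2-fold lower in members included *Krt1*, *Krt10* and *Dkk4*, which the rule limits. The others with the lowest ratios were *Npl*, *Serpinb12*, *2610528A11Rik*, *Elovl4*, *Ptgs1*, *Serpinb10* and *Serpinb3c*. *Elovl4* makes very long chain fatty acids for the skin barrier, and *Npl* encodes a sialic acid lyase. *Npl* gave 1 and 3 UMIs in members, a ratio 168-fold and 32.6-fold below other cells.

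Members differed among themselves along *Lhx2*. They were divided into those with 2, 3 to 4, and 5 or more UMIs of *Lhx2* (58, 68 and 78 Ctrl cells, and 61, 73 and 42 cKO cells). Depth differed with this division, since the median UMIs were 9224.5, 9363 and 11814 in Ctrl and 8664, 9638 and 13124.5 in cKO, and its part in the following values was not tested. *Krt79* counts were uneven among members, with a range of 0 to 61 UMIs in Ctrl and 0 to 27 in cKO. The 10 highest cells held 45.7% and 47.5% of its UMIs, which intervals for counting error do not cover. As a sum over cells, *Krt79* was at 254, 179 and 149 CPM in Ctrl and at 298, 153 and 67.4 CPM in cKO. Its summed level was thus lower where *Lhx2* was higher in both libraries. *Krt14*, the basal keratin, was at 2170, 1950 and 1453 CPM in Ctrl and at 2029, 1621 and 1337 CPM in cKO, in the same order. *Tbx1* was at 81.8, 140 and 179 CPM in Ctrl and at 97.6, 155 and 145 CPM in cKO, lowest in both libraries where *Lhx2* was at 2 UMIs. *Mki67*, a protein of dividing cells, was at 56.2 CPM in Ctrl and 57.1 CPM in cKO where *Lhx2* was at 2 UMIs, and at 138 and 123 CPM where it was at 5 or more.

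**Figure D3:**
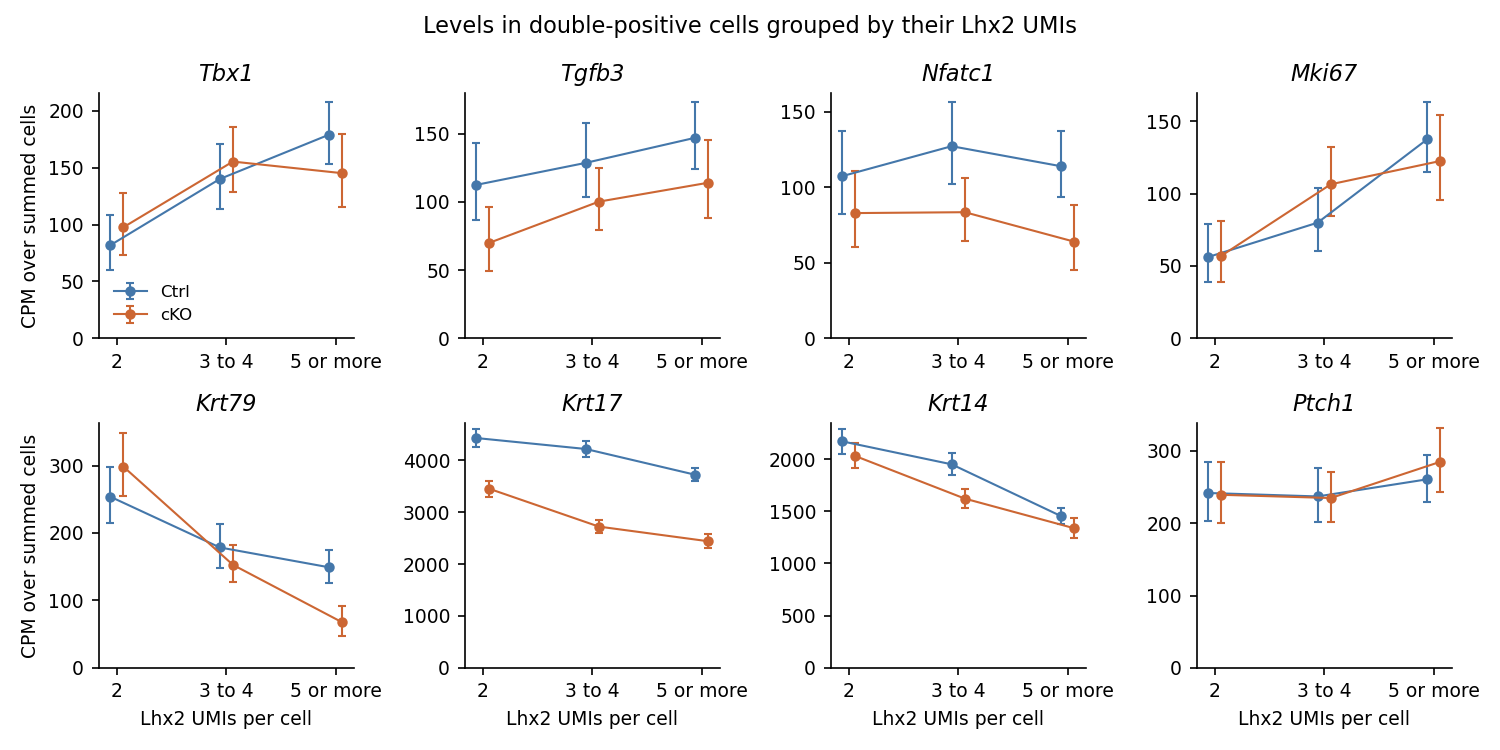
Level (CPM of the summed cells, linear vertical axes) of 8 genes in members with 2, 3 to 4, and 5 or more UMIs of *Lhx2*, in Ctrl and cKO, with exact Poisson 95% intervals. *Krt79* goes from 254 to 149 CPM in Ctrl and from 298 to 67.4 CPM in cKO, and *Mki67* from 56.2 to 138 CPM and from 57.1 to 123 CPM.

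A UMI of *Mki67* or *Top2a* was found in 126 Ctrl (61.8%) and 115 cKO members (65.3%). *Krt79* had a UMI in 43.1% and 34.1% of members, or 35.7% and 28.5% when thinned. Its share in cells with *Sox9* but no *Lhx2* was 43.3% and 47.0%. *Shh* had a UMI in 9.31% and 10.2% of members, against 58.6% and 57.1% of cells with *Lhx2* but no *Sox9*. A UMI of both *Shh* and *Krt79* was found in 8 Ctrl and 2 cKO members. These pairs rest on as little as 1 UMI of each gene, and *Shh* reached 2 or more UMIs in 6 Ctrl and 7 cKO members. Doublets were kept, and the part of doublets and of free RNA in these pairs was not tested.

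The share of kept cells that were members was 4.59% (3.99 to 5.24) in Ctrl and 4.92% (4.23 to 5.68) in cKO. The difference, cKO minus Ctrl, was 0.333 percentage points, and its interval of -0.598 to 1.29 included 0. With every cell thinned to 5500 UMIs before the rule was applied, 100 of 4275 Ctrl cells (2.34%) and 64 of 3333 cKO cells (1.92%) were members, a difference of -0.419 points (-1.07 to 0.248). With 1 UMI of each gene required, the shares were 8.64% and 10.5%, and the difference of 1.88 points (0.584 to 3.19) did not include 0. Whether a difference in share was seen, and its direction, thus depended on the number of UMIs required and on thinning. The share of cells with *Sox9* but no *Lhx2* was 6.18% in Ctrl and 8.28% in cKO, that of cells with *Lhx2* but no *Sox9* was 2.50% and 2.54%, and interfollicular basal cells made up 48.8% and 31.2%. The integrin gate and the number of genes required per cell help to set all of these shares.

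Levels in cKO and Ctrl members were compared on the UMIs summed over each library's members (2253361 in Ctrl and 1900931 in cKO). Of 9349 genes with at least 20 UMIs over both sums, 687 (7.35%) were at least 1.5-fold higher in cKO and 727 (7.78%) at least 1.5-fold lower. The interval excluded 1 for 346 and 325 of these. Among the 4949 genes with at least 100 UMIs, 178 (3.6%) were higher and 146 (2.95%) lower. The median log2 ratio of the 9349 genes was -0.03, so the bulk of genes lay close to equal levels.

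**Figure D4:**
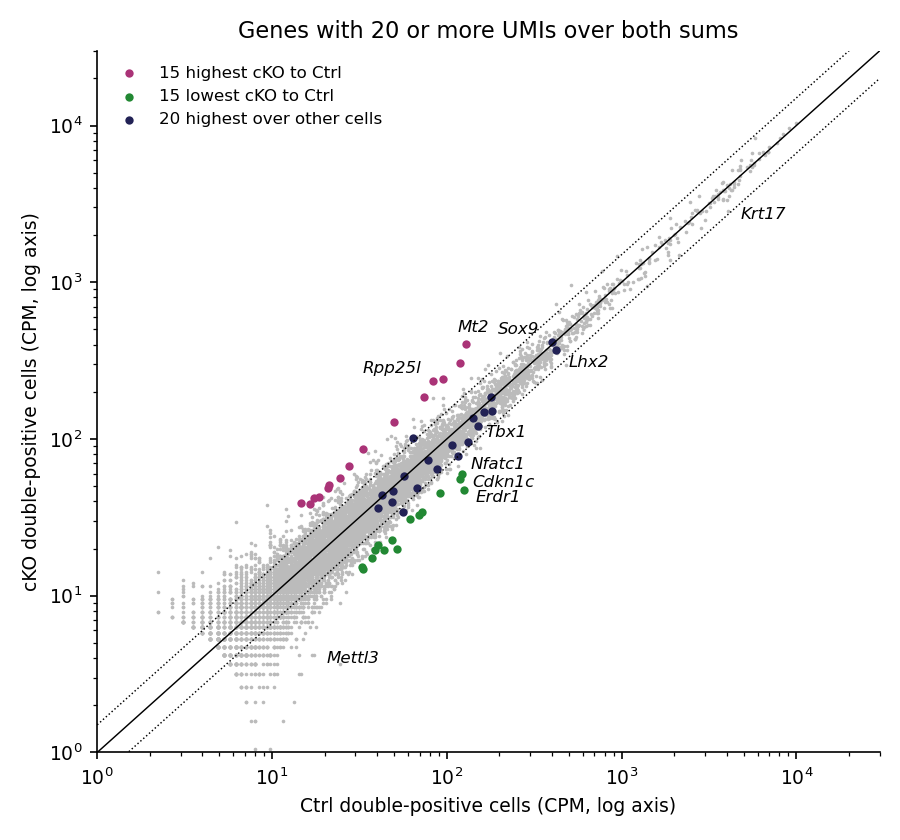
Level of each gene in cKO members (vertical axis) against Ctrl members (horizontal axis), both as CPM on log axes, 1 point per gene with at least 20 UMIs over both sums and a UMI in each, without *Xist* and Y-linked genes, with named genes in colour and dotted lines at 1.5-fold. Most points lie near the diagonal, and *Mt2* lies above it at 128 and 403 CPM.

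The gene with the highest ratio among those with at least 100 UMIs was *Mt2*, a metallothionein that binds zinc and copper (chromosome 8). It gave 289 UMIs in Ctrl and 767 in cKO members, or 128 and 403 CPM, a ratio of 3.15 (2.74 to 3.61). In both libraries *Mt2* was lower in members than in other kept cells, which held 480 and 542 CPM. In free RNA, summed over barcodes of 10 to 100 UMIs, it was at 724 and 808 CPM. Its ratio was 1.13 in all other kept cells, 0.98 in interfollicular basal cells, 1.28 in cells with *Sox9* but no *Lhx2*, and 2.05 in cells with *Lhx2* but no *Sox9*. *Mt2* counts were uneven among members, with a range of 0 to 13 UMIs in Ctrl and 0 to 93 in cKO. A UMI was found in 46.1% and 64.8% of members, and the 10 highest cells held 34.6% and 46.3% of its UMIs. Its neighbour *Mt1* was at 420 and 722 CPM, a ratio of 1.72 (1.58 to 1.87), against 1.05 in other kept cells. In suprabasal cells the ratio of *Mt2* was 1.37 (1.27 to 1.49). *Mt1* had ratios of 1.61 in cells with *Lhx2* but no *Sox9* and 1.26 in those with *Sox9* but no *Lhx2*. Both metallothioneins were thus higher in cKO in members and, to a lesser extent, in both neighbouring follicle classes. They were near equal in interfollicular basal cells. The ratio of *Mt2* in suprabasal cells was above that in cells with *Sox9* but no *Lhx2*, so its rise was not limited to follicle classes. Without members with a UMI of *Mki67* or *Top2a*, the log2 ratio of *Mt2* was 0.96 in place of 1.65.

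For most of the other genes with the highest ratios the same held outside the members. *Rpp25l*, which encodes a protein related to a subunit of RNase P, was at 83.9 and 235 CPM in members, a ratio of 2.80 (2.35 to 3.33), against 3.39 in other kept cells. *Nxt1*, an mRNA export factor, had ratios of 2.58 and 2.81, and *Mrpl46*, *Mrpl43* and *Mrps34*, proteins of the mitochondrial ribosome, had ratios of 2.51 to 2.55 in members and 2.19 to 2.59 in other cells. Further genes of this kind were *Prr7*, *Lsm10*, *Cdc42ep5*, *Tradd*, *Znhit2*, *Fam210a* and *Polr2l*, at 2.31 to 2.66. *Rbm15*, which recruits the m6A writer to RNA, had a ratio of 2.35 (1.64 to 3.41) in members and 3.72 in other cells, but its log2 ratio was 0.15 without members with a UMI of *Mki67* or *Top2a*. Of the 15 genes with the highest ratios, 13 were also at least 1.5-fold higher in cKO in the other kept cells, the exceptions being *Mt2* and *Dnajb4*, a heat shock protein gene (2.29 in members and 1.38 in other cells). The members' ratio divided by that of other cells had an interval above 1 for *Mt2* and *Dnajb4* and below 1 for *Rpp25l* and *Rbm15*. These genes were picked for their ratio in members.

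The 15 genes with the lowest ratios were taken in the same way. *Adgrl2*, an adhesion receptor gene, gave 84 and 33 UMIs, a ratio of 0.47 (0.30 to 0.70), against 1.20 in other kept cells. With 1 UMI of each of the rule's genes required, its log2 ratio was -0.45, short of 1.5-fold. *Mboat2*, a lipid acyltransferase gene, had a ratio of 0.44 (0.28 to 0.69) against 0.81. *Vim*, the intermediate filament of mesenchymal cells, had a ratio of 0.49 (0.39 to 0.61) against 0.76. Its ratio was 0.36 in cells with *Sox9* but no *Lhx2*, but 1.04 (0.63 to 1.71) in those with *Lhx2* but no *Sox9*. In suprabasal cells it was 3.74 (1.73 to 8.72), from 35 UMIs in all. *Vim* had a UMI in 102 of 204 Ctrl and 62 of 176 cKO members. *Pdgfc*, a growth factor gene, had a ratio of 0.50 against 0.79. Together with *Xrcc5*, *2310009B15Rik*, *Haghl* and *Kctd20*, these made 8 of 15 genes whose ratio in members divided by that in other cells had an interval below 1, and the genes were picked for a low ratio in members. *Cdkn1c*, the cell cycle inhibitor p57, had ratios of 0.47 (0.37 to 0.59) and 0.52 in members and other cells. *Erdr1* (0.38 in both), *Hist3h2a*, *Hist1h1c*, *Mbd2*, *Rbmx* and *Eif2s3x* were also lower in both. *Eif2s3x* and *Rbmx* lie on the X chromosome, the annotation places the gene ID of *Erdr1* on the Y chromosome, and the libraries differ in sex, so for these 3 genes, too, sex and genotype cannot be told apart.

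Among the genes that mark the class, *Sox9* was at 398 CPM in Ctrl and 416 in cKO members, a ratio of 1.05 (0.95 to 1.15), and *Lhx2* at 422 and 370 CPM, a ratio of 0.88 (0.80 to 0.97). These values only describe the members, as each had to hold 2 UMIs of both. *Tbx1* was at 142 and 136 CPM, a ratio of 0.96 (0.81 to 1.13), against 1.27 in cells with *Sox9* but no *Lhx2*, 1.78 in those with *Lhx2* but no *Sox9*, and 1.85 in the other kept cells pooled. The pool mixes classes whose shares differ between the libraries, and the part of these shares in its ratios was not tested. *Lgr5* was at 36.4 and 25.3 CPM, a ratio of 0.69 (0.48 to 1.00). *Nfatc1* was at 116 and 77.3 CPM, a ratio of 0.67 (0.54 to 0.82). Its ratio was 0.82 (0.62 to 1.09) in cells with *Sox9* but no *Lhx2*, 0.76 (0.38 to 1.47) in those with *Lhx2* but no *Sox9*, and 1.09 in all other kept cells pooled. *Nfatc1* passed the 1.5-fold limit in 6 of 14 other ways of processing the counts.

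Of 32 measured transcription factors of the follicle, 1 was at least 1.5-fold higher in cKO and 3 were lower, with a median log2 ratio of -0.08. The factors that passed downward were *Nfatc1*, *Cux1* (0.61, 0.47 to 0.79), a homeodomain repressor, and the vitamin D receptor gene *Vdr*. *Vdr* stood at 0.41 from 20 and 7 UMIs, with an interval that included 1. *Cux1* passed 1.5-fold in 10 of 14 other ways of processing the counts, with log2 ratios from -0.78 to -0.16. *Runx1*, a factor of the hair cycle, was at 135 and 139 CPM, a ratio of 1.03, against 1.35 in cells with *Sox9* but no *Lhx2* and 1.10 in those with *Lhx2* but no *Sox9*.

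Of 25 measured secreted and surface genes of follicle stem cells and sheath, 0 were higher and 1, the guidance receptor gene *Robo1*, was lower, with a median log2 ratio of -0.15. *Cxcl14*, a chemokine, was at 2119 and 1487 CPM in members, a ratio of 0.70 (0.67 to 0.74), and at 0.64 in other kept cells. Its counts ranged from 1 to 122 UMIs with a median of 20 in Ctrl, and from 0 to 83 with a median of 13 in cKO, so the cells overlapped widely. *Tgfb3* was at 132 and 95.7 CPM, a ratio of 0.72 (0.60 to 0.87), against 0.88 in cells with *Sox9* but no *Lhx2*, 0.83 in those with *Lhx2* but no *Sox9*, and 1.24 in other kept cells pooled. *Tgfb2*, a further ligand of that family, had a ratio of 0.85, against 1.17 and 0.84 in those classes. *Pthlh*, a paracrine hormone, had 0.91 against 0.98 and 1.03, and *Sostdc1*, a secreted inhibitor of BMP and WNT, 0.90 against 0.89 and 0.67. *Igfbp7* was the gene among the 18 above with an interval over 1, at 1.57 (1.26 to 1.96). It had a UMI in 35.3% of Ctrl and 36.4% of cKO members. The 10 highest cells held 36.6% and 53.1% of its UMIs, an unevenness that the interval does not cover. *Igfbp7* passed 1.5-fold in 10 of 14 other ways of processing the counts. *Mdk*, a heparin-binding growth factor, stood at 1.27 (1.08 to 1.48).

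No keratin of the 9 measured passed 1.5-fold in either direction, with a median log2 ratio of -0.24. The list includes *Krt1* and *Krt10*, which the rule limits, and the other 7 had a median of -0.31. *Krt17*, the keratin of follicle and activated epidermis, was at 4063 and 2846 CPM, a ratio of 0.70 (0.68 to 0.72), against 0.81 in cells with *Sox9* but no *Lhx2* and 0.74 in those with *Lhx2* but no *Sox9*. Every member had at least 4 UMIs of *Krt17*, with a median of 37.5 in Ctrl and 24 in cKO. *Krt5* stood at 0.73 in members and 0.79 in interfollicular basal cells, and *Krt15* at 0.79 and 0.62. *Krt14* was at 1794 and 1651 CPM, a ratio of 0.92, and *Krt79* at 0.91 (0.78 to 1.05). Of the 7 keratins that the rule did not use, 6 were below 1, against 53.8% of all measured genes. Of 39 adhesion and matrix genes, 3 were higher, among them *Fras1*, a basement membrane gene (1.78, 1.25 to 2.56, but a log2 ratio of 0.06 after thinning), and 2 were lower, among them *Itgb4*, the integrin of hemidesmosomes (0.57, 0.40 to 0.79).

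In the WNT pathway, 6 of 43 measured genes (13.95%) were at least 1.5-fold higher in cKO and 2 (4.65%) lower, against 7.35% and 7.78% of all genes, and the median log2 ratio was 0.01. The ligand gene *Wnt3* gave 17 and 41 UMIs, a ratio of 2.86 (1.59 to 5.37), against 1.09 in other kept cells. The co-receptor gene *Lrp5* had a ratio of 2.29 (1.19 to 4.60) against 1.05, and *Lrp4*, whose product binds inhibitors of the pathway, 1.99 (1.36 to 2.97) against 1.32. The receptor gene *Fzd3* and *Bambi* were both at 1.98, and *Kremen1*, a receptor for Dickkopf proteins, at 1.88. The intervals of *Fzd3* and *Kremen1* included 1. *Fzd1*, a further receptor gene, stood at 0.50 (0.24 to 0.98) and *Dvl2*, which relays the signal inside the cell, at 0.55 (0.37 to 0.80). The counts behind these genes were small, and calls depended on the processing. The log2 ratio of *Wnt3* was 0.38 after thinning, that of *Lrp5* 0.41 with 1 UMI of each of the rule's genes required, that of *Lrp4* -0.43 without members with a UMI of *Mki67* or *Top2a*, and that of *Fzd1* at the highest -0.58, just short of 1.5-fold.

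In the hedgehog pathway, 1 of 12 measured genes was higher (*Gli3*, 1.65 from 18 and 25 UMIs, with an interval that included 1) and 0 were lower. *Ptch1*, the SHH receptor gene and a target of the pathway, was at 248 and 251 CPM, a ratio of 1.01 (0.89 to 1.14). It had a UMI in 77.0% and 75.6% of members, against 34.3% and 40.2% of interfollicular basal cells. The neighbouring follicle classes also carried *Ptch1*. Its share was 69.4% and 69.2% in cells with *Lhx2* but no *Sox9*, and 55.6% and 60.1% in those with *Sox9* but no *Lhx2*. *Gli1*, another target, stood at 0.72 (0.54 to 0.95), against 1.10 and 1.01 in cells with only *Sox9* or only *Lhx2*, and *Gas1*, a co-receptor gene, stood at 0.75 (0.66 to 0.84), against 0.95. None of these 3 passed 1.5-fold.

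In the BMP pathway, 4 of 20 measured genes were higher and 0 lower, against 7.35% and 7.78% of all genes, which are the shares to read every list's counts against. The inhibitory *Smad7* gave 23 and 46 UMIs, a ratio of 2.37 (1.41 to 4.10), against 1.72 in other kept cells. The ligand genes *Bmp4*, at 2.13 from 10 and 18 UMIs, and *Bmp2*, at 1.58 from 12 and 16, had intervals that included 1. In the NOTCH pathway 2 of 19 were higher and 1 lower. *Hes1*, a target gene, was at 1.54 (1.24 to 1.91) in members and 1.54 in other kept cells, while *Maml2*, a co-activator, stood at 0.55. Of 17 genes of the TGF-beta pathway, 2 were higher and 1, *Tgfbi* (0.57, 0.36 to 0.89), was lower. In FGF and EGF signalling, 2 of 14 were higher, the feedback inhibitors *Spry2* (2.04, 1.27 to 3.35, but a log2 ratio of 0.37 without members with a UMI of *Mki67* or *Top2a*) and *Errfi1* (1.68, 1.08 to 2.65), and 1, the ligand gene *Tgfa*, was lower.

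**Figure D5:**
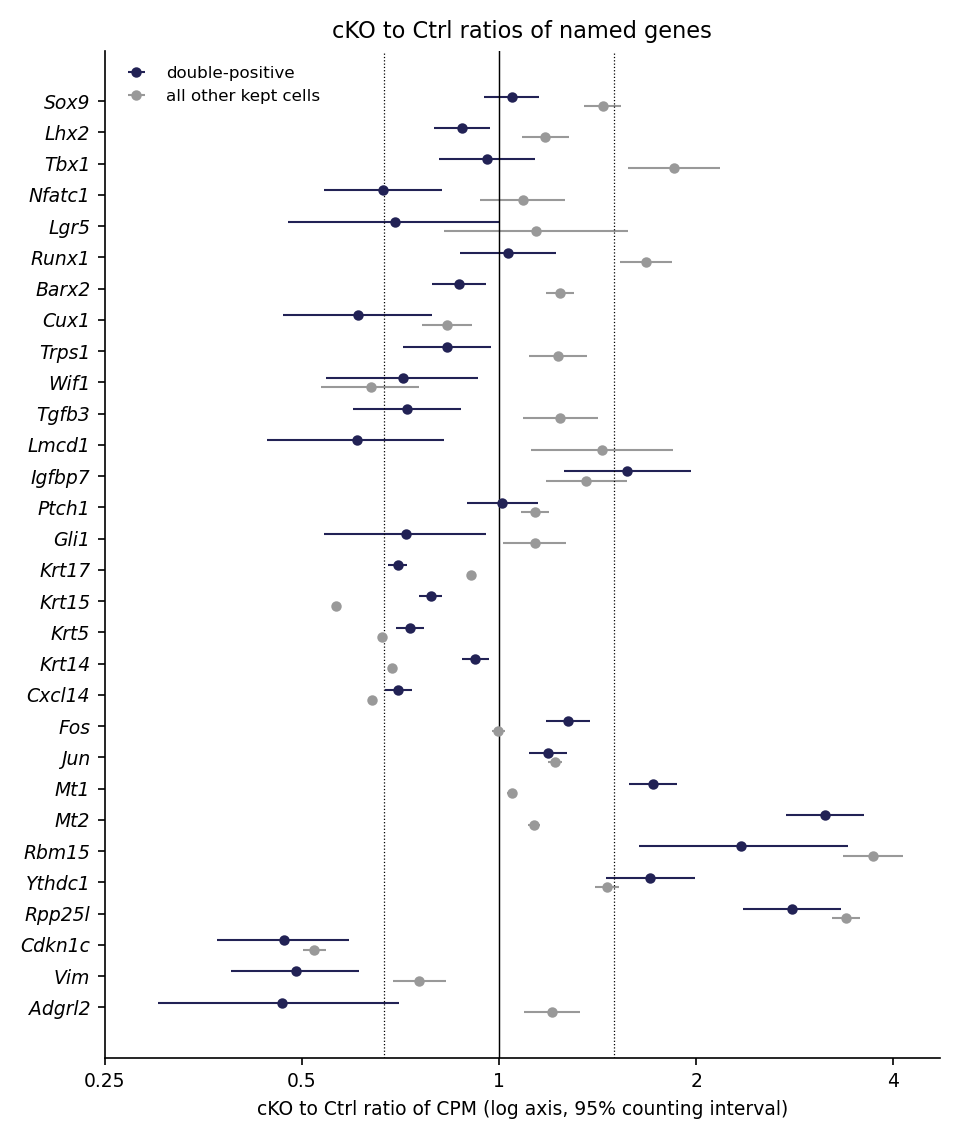
cKO to Ctrl ratio of CPM (horizontal log axis) in members and in all other kept cells for 30 of the genes described, with 95% intervals for counting error and dotted lines at 1.5-fold. *Mt2* is at 3.15 in members and 1.13 in the others, and *Rpp25l* is high in both (2.80 and 3.39).

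Of 21 measured m6A writers, readers and erasers, 2 were higher and 2 lower in cKO members. The writer gene *Mettl3*, at 0.24, is the gene that the cKO targets, and *Rbm15* stood at 2.35. *Ythdc1*, the nuclear reader, was at 123 and 210 CPM, a ratio of 1.70 (1.46 to 1.99), against 1.46 in other kept cells. The cytoplasmic reader *Ythdf2* was at 1.48 (1.24 to 1.78) against 1.74. *Igf2bp2*, a further reader, stood at 0.65 (0.48 to 0.88) against 0.92. *Ythdf2* did not pass 1.5-fold in members.

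Of 45 RNA processing and decay genes, 4 were higher (*Rpp38* at 2.99, *Rpp25l*, *Nxt1* and *Pop7* at 2.14) and 3 lower. *Rpp38* and *Pop7* encode subunits of RNase P, and both were also higher in other kept cells, at 3.06 and 2.31. The median log2 ratio of the list was -0.03, so most of its members lay near equal levels. Of 40 translation factors, 2 were higher, *Eif4ebp1* (1.53, 1.27 to 1.85) and *Eif4ebp2*, which hold back cap-dependent initiation, and 2 lower. A ratio below 1 was found for 28 of the 40, against 53.8% of all measured genes. The interval lay below 1 for 17 and above 1 for 4. The median log2 ratio of these factors was -0.11 and stood between -0.14 and -0.08 over the alternatives.

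In the list of immediate early and stress genes, 4 of 28 were higher (14.3%) and 2 lower (7.14%), against 7.35% and 7.78% of all genes. A ratio above 1 was found for 22 of the 28, against 46.2% of all genes. The list's median log2 ratio was 0.22 and stood between 0.01 and 0.30 over the alternatives. *Fos* was at 567 and 722 CPM, a ratio of 1.27 (1.18 to 1.38), against 1.00 in other kept cells, and *Hspa5*, a chaperone of the endoplasmic reticulum, at 1.33 (1.20 to 1.48) against 1.21. *Hsph1*, a cytosolic chaperone, was at 1.92 (1.36 to 2.74), while *Ddit3* stood at 0.55 and *Gadd45a* at 0.60. *Jun* was at 1.19 in members and 1.22 in others, so this gene was higher in both.

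Few cycle genes passed 1.5-fold. Of 30 S phase genes, 0 passed it in either direction. Of 34 genes of G2 and M phase 0 were higher and 1, the checkpoint kinase gene *Bub1* (0.58, 0.39 to 0.85), was lower. Of these 34, 24 had a ratio below 1, against 53.8% of all measured genes. The interval of the 34 lay below 1 for 9 and above 1 for 2. The median log2 ratio of the 34 was -0.08 and stood between -0.43 and 0.20 over the alternatives. A UMI of *Mki67* was found in 28.1% of Ctrl and 32.7% of cKO members after thinning, with overlapping intervals.

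Markers of other cell types, apart from the fibroblast list, were low in members of both libraries. The immune list summed to 9.76 and 15.3 CPM, against 8.84 and 7.20 in other kept cells, with *Tyrobp* and *Fcer1g* at 0. The Merkel list summed to 12.9 and 10.0 CPM, with *Krt20* at 0, and the endothelial list to 4.88 and 6.84 CPM, with *Cdh5* and *Kdr* at 0. The melanocyte and Schwann list summed to 4.44 and 2.63 CPM, against 23.9 and 8.66, with *Mlana*, *Sox10* and *Foxd3* at 0. The fibroblast list summed to 416 and 400 CPM, against 758 and 661, and most of it was *Dcn* at 354 and 348 CPM. *Col3a1* was at 0 and *Pdgfra* gave 0 and 1 UMIs. *Dcn* in members was at 0.48 and 0.54 times its level in other kept cells. Of the 2 fibroblast genes compared with other kept cells, 1, which was not *Dcn*, was at least 2-fold higher in members in both libraries. *Vim*, which is not particular to fibroblasts, was 4.11-fold higher in members than in other kept cells in Ctrl and 2.66-fold in cKO. The part of mesenchymal RNA in these values was not tested.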

How the data were processed

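The authors sequenced 10x 3′ libraries of sorted E17 cells, and the deposited matrices hold UMI counts per gene and barcode. The submitters' processing notes name Cell Ranger 2.0 and mm10, and the study's methods name a later version. Counts were used as deposited. Barcodes with fewer than 1800 genes were left out, after the study's methods. UMIs were summed over members in each library and scaled to CPM. Intervals (95%) were exact Poisson for levels, exact conditional binomial for ratios, exact binomial for shares and Newcombe for differences of shares; a quotient of ratios had a normal interval on the log scale. A fold against 0 used a floor of 3 counts per sum. With 1 library per condition no test was made, and a gene was called at 1.5-fold. The number of embryos per library is not given in the sources used here.

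Named genes were *Sox9*, *Lhx2*, *Lgr5* and *Tbx1*; the 15 highest and 15 lowest cKO to Ctrl ratios among genes of 100 or more UMIs (leaving out *Xist*, Y-linked genes and, beyond 3, members of 1 family; *Erdr1*, whose gene ID the annotation places on the Y chromosome under another name, was kept by its name in the files); the 20 highest and 10 lowest ratios to other kept cells (50 or more UMIs of members, or 200 or more of other cells, in each library); and genes of the lists with the highest or lowest ratio or level. The class, its members and the lists were chosen with earlier results of these data known. Doublets were kept: Scrublet in scanpy 1.11.5 marked 6 (0.135%) and 3 (0.0839%) of kept cells, below 0.5%, so its calls were taken as not having worked, and the 4% with the highest scores were left out as an alternative. Other alternatives were the gene minimum, the UMIs required, thinning, mitochondrial share, members with *Shh*, members with *Mki67* or *Top2a*, equal weight per cell, subtraction of free RNA, the low count filter and the scaling (TMM in edgeR 4.0.16 under R 4.3.3, median of ratios, trimmed totals). Scripts (Python 3.11.15; scipy 1.17.1 for intervals, pandas 2.3.3 for tables) were tested on simulated data. Positions are GENCODE on GRCm38.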

Additional observations from a re-analysis of the deposited data

Results flagged for a closer look

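Barcodes of 1000 or more but fewer than 1800 genes, which the comparisons left out, also held cells with at least 2 UMIs of both *Sox9* and *Lhx2*. In the cKO library these were 8 of 1944 barcodes (0.412%, 0.178 to 0.809), above the 0.154% that a count of 0 would allow. That limit stands for 3 counts, so any count over 3 is above it, and it does not show an excess of such barcodes. *Krt79* had a UMI in 4 of the 8, *Tbx1* in 3, *Nfatc1* in 3 and *Lgr5* in 0. In the Ctrl library they were 3 of 1769 (0.170%), which was at that limit. The difference between the libraries was not tested.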

How the results depend on the processing

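No paired analysis was possible because each condition had 1 library, and for the same reason no replicate could be left out. With 1 UMI of *Sox9* and of *Lhx2* required, 8.64% of the Ctrl library and 10.5% of the cKO library were members, and the gap was 1.88 points (0.584 to 3.19). The other settings gave -0.419 to 0.641 points. The counts of genes at least 1.5-fold higher and lower were 345 and 349 with a minimum of 50 UMIs and 2392 and 2103 with no filter, since fewer or more genes were then compared, and 539 to 771 and 620 to 824 under the other settings. Of the calls, 48.6% were higher, 50.6% to 54.1% under the other scalings and 39.9% without members with a UMI of *Mki67* or *Top2a*. *Mycl* turned to a log2 ratio of -0.36 when cells were thinned, and *Lrp4* to -0.43 without members with a UMI of *Mki67* or *Top2a*, and the cause was not tested. Of 61 named genes past 1.5-fold, 59 kept their sign in all 14 alternatives and 31 were past 1.5-fold in all of them. *Mt2* stood between 0.96 and 2.12 on the log2 scale. Depth limits genes of few UMIs, for which intervals were wide.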

Other observations

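In the family of MYC and its partners, 2 of 10 measured genes were at least 1.5-fold higher in cKO members and 0 were lower, against 7.35% and 7.78% of all measured genes. *Mycl* gave 23 and 39 UMIs, a ratio of 2.01 (1.17 to 3.53), against 1.04 in other kept cells, but its log2 ratio was -0.36 after thinning. *Mga*, whose product pairs with MAX, had a ratio of 1.60 (1.10 to 2.35), against 0.97. Of 20 TRP53 targets and genes of cell death, 1 was higher and 2 were lower, with a median log2 ratio of 0.07. In the list of placode and tip genes, from which the rule limits *Dkk4* and *Fgf20*, 3 of 14 were higher and 0 lower, beside the same shares of all genes. The share of members with a UMI of *Lef1*, the WNT effector of the placode, was 15.1% in Ctrl and 13.3% in cKO after thinning. Of 13 genes of the EDAR and NF-kB pathway, 3 were higher and 3 lower. Of 8 upper follicle and sebaceous genes, 0 were higher and 1, *Cst6*, was lower, at 0.59 from 20 and 10 UMIs. Of 11 basal interfollicular genes 2 were higher and 0 lower, and of 8 suprabasal genes 1 was higher and 0 lower.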
